A study of Mus musculus with 12 samples.

Results

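9130409I23Rik, C130080G10Rik and 4931406C07Rik are 3 mouse genes that still carry the clone names of the RIKEN cDNA collection in the count tables, and their RNA was higher in the liver of mice fed BIBB-515. They were chosen by their measured rise, that is, selected on the read counts of the BIBB-515 and control libraries described here, so that their levels and fold changes are given as a description with no test. They are 3 of 24062 genes in the tables, of which 12481 passed the filter on low counts (at least 1 CPM, a read count scaled to a library of 1000000 reads, in at least 2 of the 12 mice) and were tested.

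The libraries were made from whole liver of female C57BL/6J (B6) mice, which arrived at 6 weeks of age, were acclimated for 2 weeks and were all moved from chow to the control diet 3 days before the start. Control mice stayed on that diet, and BIBB-515 mice received the matched diet that delivered BIBB-515 at 55 mg/kg body weight for 10 days. BIBB-515 is an inhibitor of oxidosqualene cyclase (lanosterol synthase), the enzyme that closes the sterol ring in cholesterol synthesis. Of 11 mice per group in the study, 6 control mice (numbered 1 to 6) and 6 BIBB-515 mice (numbered 6 to 11) had RNA-seq libraries, with 22764819 to 27914647 and 24223939 to 31058370 reads counted on genes. One strain, sex, dose and time point were sampled, which limits the groups as a model. RNA from a whole organ cannot tell more cells of a type apart from more RNA per cell.

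Genes with RIKEN clone names are those for which no function-based symbol had been settled when the annotation was made. Liver answers many foreign compounds through the nuclear receptors CAR and PXR, which bind paired copies of a 6-base half-site and induce cytochrome P450, esterase, transferase and transporter genes. The transcription factor NRF2 induces glutathione and quinone-detoxifying enzymes through antioxidant response elements, whose core is written TGACNNNGC. These are background and were not measured here, but they set the motifs searched and the list of detoxification genes against which the 3 genes are described.

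9130409I23Rik lies on the plus strand at chr1:181051237-181060667 in mm10, the build to which the libraries were aligned. It has 3 exons of 1898 bases in all, and GENCODE vM21 annotates it as protein coding, with an open reading frame of 320 codons that runs from exon 1 into exon 3. C130080G10Rik lies on the plus strand at chr2:114054396-114061502, with 3 exons of 1906 bases and no coding sequence. RefSeq calls it a long non-coding RNA, and GENCODE calls it antisense, although no GENCODE gene on the opposite strand overlaps it. 4931406C07Rik lies on the minus strand at chr9:15283337-15306448, with 2981 exonic bases and a reading frame of 315 codons. It is the mouse counterpart of human C11orf54, annotated as an ester hydrolase. In 9130409I23Rik, 0 of 1849 stretches of 50 bases were shared with a transcript of another GENCODE gene. In C130080G10Rik 45.9% were shared, all with A530058N18Rik, which GENCODE extends over the same exons and which had 0 reads in every mouse in the tables used. In 4931406C07Rik 5.67% were shared, all with Taf1d on the opposite strand.

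Upstream sequences are shown because the 3 genes moved in the same direction and the start sites differ in kind. They are the 250 bases before an annotated start, from RefSeq on GRCm38.p6, 5′ to 3′ on the strand of the gene. Capitals mark matches to the half-site AGGTCA or AGTTCA or to TGACNNNGC on either strand.
9130409I23Rik, chr1:181050987-181051236: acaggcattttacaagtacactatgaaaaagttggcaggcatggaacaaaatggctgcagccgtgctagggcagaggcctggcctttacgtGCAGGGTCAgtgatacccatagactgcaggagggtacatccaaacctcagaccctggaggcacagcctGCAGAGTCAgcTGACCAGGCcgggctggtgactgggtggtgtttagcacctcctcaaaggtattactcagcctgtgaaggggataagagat
C130080G10Rik, chr2:114054146-114054395: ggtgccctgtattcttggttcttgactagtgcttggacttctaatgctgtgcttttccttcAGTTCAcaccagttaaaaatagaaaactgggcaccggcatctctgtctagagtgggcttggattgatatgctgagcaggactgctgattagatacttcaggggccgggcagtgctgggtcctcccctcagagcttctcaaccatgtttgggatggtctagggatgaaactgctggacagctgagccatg
4931406C07Rik, inner start, chr9:15301608-15301857: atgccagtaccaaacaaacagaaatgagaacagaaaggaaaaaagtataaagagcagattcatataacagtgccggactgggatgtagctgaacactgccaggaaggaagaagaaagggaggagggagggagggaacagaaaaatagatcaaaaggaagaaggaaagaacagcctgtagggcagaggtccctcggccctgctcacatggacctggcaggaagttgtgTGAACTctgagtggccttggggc

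Windows of 300 bases, 250 before and 50 after the start, were searched on both strands for the half-sites AGGTCA and AGTTCA, for direct repeats of them spaced by 3 or 4 bases (DR3, DR4), for everted repeats spaced by 6 (ER6) and for the core TGACNNNGC. The 9130409I23Rik window held 3 matches to TGACNNNGC, with their first bases 159, 91 and 80 bases before the start, and none of the half-sites. Exon 1, at that start, held only 10 reads over all 12 mice, and whether this start was in use was not tested. Of all 32851 promoter windows, 12.4% held at least 1 match to TGACNNNGC and 0.0791% (26 windows) held at least 3. The cut at 3 equals the count in the 9130409I23Rik window and was applied to this motif only, so the share is a description and no test. The C130080G10Rik window held 1 AGTTCA match, 189 bases before the start, as did 14.0% of all windows at some position. 4931406C07Rik has 3 annotated starts in the table. Its windows at the outer starts, 15306448 and 15306167, held no match, had GC contents of 59.7% and 68.0%, and carried 26 and 34 CpG dinucleotides. The inner window, at start 15301607, held 2 AGTTCA matches on the opposite strand, 1 of them downstream of the start, with a GC content of 48.0% and 2 CpG dinucleotides. The median over all windows was a GC content of 52.7% and 7 CpG dinucleotides. No window of the 3 genes held AGGTCA (16.3% of all windows), DR3 (0.0122%), DR4 (0.0274%) or ER6 (0.00913%). These matches describe letters in these windows and say nothing of the binding of a factor.

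In control mice 9130409I23Rik stood at 1.47 CPM in the lowest mouse, 3.08 CPM at the median and 3.94 CPM in the highest, from 38 to 109 reads. In BIBB-515 mice it stood at 19.6 CPM in the lowest, 23.2 CPM at the median and 25.7 CPM in the highest, from 483 to 766 reads. The diets did not overlap, and the lowest BIBB-515 mouse was 4.96 times the highest control mouse. The means were 2.83 ± 0.911 CPM (SD, n = 6) and 22.7 ± 2.21 CPM (SD, n = 6), an 8.00-fold ratio. The fitted log2 fold change was 2.99 (SE 0.17).

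C130080G10Rik was close to undetected in control liver. Control mice 1, 2 and 4 had 0 reads and control mice 3, 5 and 6 had 1 read each, 3 reads in all. BIBB-515 mice had 50, 41, 45, 26, 38 and 43 reads (mice 6 to 11), 243 in all, or 1.05 CPM in the lowest, 1.49 CPM at the median and 1.76 CPM in the highest. The groups did not overlap. The pooled read ratio was 71.0, with an exact 95% interval from 24.0 to 347 that covers counting error only. The fitted log2 fold change of 5.85 (SE 0.39) rests on the prior count and is no bound. The gene passed the filter on low counts through the BIBB-515 mice alone, since 6 of them and 0 control mice reached 1 CPM.

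4931406C07Rik was well expressed in both diets. Because its first exon overlaps Taf1d, its values come from the tables of primary alignments, in which a read that overlaps both genes counts for each. Control mice ranged from 160 CPM through a median of 185 CPM to 196 CPM, on 3779 to 5267 reads. BIBB-515 mice ranged from 324 CPM through a median of 383 CPM to 415 CPM, on 8242 to 13237 reads. The diets did not overlap, and the lowest BIBB-515 mouse was 1.65 times the highest control. The means were 183 ± 13.4 CPM and 380 ± 30.4 CPM (SD, n = 6 each), a 2.07-fold ratio with a fitted log2 fold change of 1.05 (SE 0.07).

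**Figure D1:**
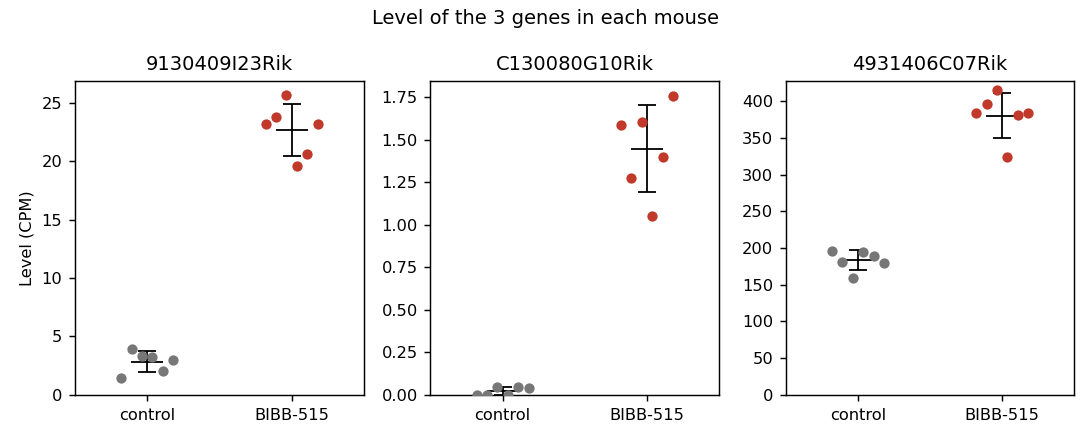
Level in CPM (vertical axes, each from 0) of the 3 genes in every mouse, with the mean and SD of each diet in black. The 6 BIBB-515 mice of each gene sit above every control mouse, from 19.6 CPM for 9130409I23Rik, 1.05 CPM for C130080G10Rik and 324 CPM for 4931406C07Rik.

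A gene whose lowest BIBB-515 mouse lay above its highest control mouse was found in 4.35% of the 12481 tested genes of the exon tables and in 4.52% of the 12881 of the primary tables. Since the 3 genes were chosen on this contrast, nothing is read from their place among them. By fitted fold change 9130409I23Rik ranked 18 of 12481 genes and 4931406C07Rik ranked 95 of 12881. The order by fold was not the order by level. Per kilobase of exon, the mean levels in control mice were 61.5 CPM per kb for 4931406C07Rik, 1.49 CPM per kb for 9130409I23Rik and 0.0114 CPM per kb for C130080G10Rik. In BIBB-515 mice they were 128 CPM, 11.9 CPM and 0.758 CPM per kb, in the same order, and no 2 neighbours in this order overlapped in any mouse of a diet. By level per length 9130409I23Rik moved from rank 9823 to rank 3881 of 12481 genes and 4931406C07Rik from rank 1064 to rank 611 of 12881. C130080G10Rik, which passed the filter through the BIBB-515 mice alone, ranked 10942 of 12481 genes in BIBB-515 mice. In control mice it was last of the 12481. Genes low in both diets had been filtered out, so nothing is read from that place.

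The spread among mice differed between the genes. The coefficient of variation of 9130409I23Rik was 32.1% in control mice and 9.77% in BIBB-515 mice, and that of 4931406C07Rik was 7.31% and 8.00%. C130080G10Rik varied by 17.7% in BIBB-515 mice, on 26 to 50 reads per mouse, where counting error is part of the spread and was not set apart. BIBB-515 mouse 9 was the lowest of its diet for each of the 3 genes. It was also the lowest for Ephx1, a neighbour described below, at 385 CPM.

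The question of whether the 3 genes moved together from mouse to mouse was asked within each diet on log2 CPM, a measure that the choice of genes did not use. In BIBB-515 mice 9130409I23Rik and 4931406C07Rik were correlated, with Pearson's r = 0.88 (exact permutation p = 0.0028, adjusted p = 0.017 over 6 relations, n = 6) and Spearman's rho = 0.94 (exact permutation p = 0.017, adjusted p = 0.10). Without the 2 mice farthest from the median of 9130409I23Rik, r was 0.99 over 4 mice. On the CPM scale r was 0.88 and its adjusted exact permutation p was 0.067, so that the call does not hold on that scale or by rank. In control mice the same pair gave r = -0.55 (exact permutation p = 0.28, n = 6). Whether the relation differs between the diets was not tested. Of 11168 other genes with an average of at least 1 log2 CPM, 79 (0.707%) had an r with 9130409I23Rik at least as high in BIBB-515 mice. C130080G10Rik and 9130409I23Rik gave r = 0.68 in BIBB-515 mice (exact permutation p = 0.14, adjusted p = 0.28, n = 6), and r = -0.06 without the 2 farthest mice. C130080G10Rik and 4931406C07Rik gave r = 0.73 (exact permutation p = 0.10, adjusted p = 0.28, n = 6), and r = 0.26 without the 2 farthest. In control mice C130080G10Rik had 0 or 1 read, so its relations there are not read.

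**Figure D2:**
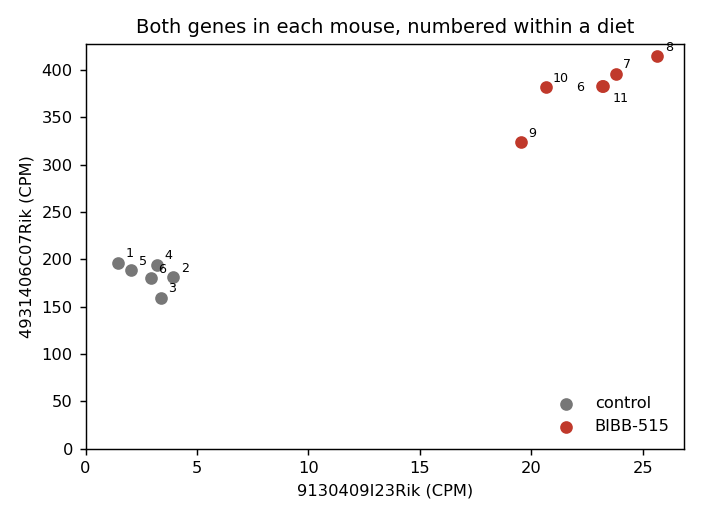
9130409I23Rik against 4931406C07Rik in CPM, both axes from 0, with each point a mouse numbered within its diet. The BIBB-515 mice run from mouse 9, lowest on both axes, to mouse 8, highest on both, while the control mice show no such order (r = -0.55).

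The reads of each gene were followed exon by exon, in tables that count a read on every exon it touches. In 9130409I23Rik, exon 1 (164 bases, 82 of them coding) held 10 reads over all 12 mice, 1 in control and 9 in BIBB-515 mice. Exon 2 (743 bases, all coding) had a mean of 1.29 CPM per kb in control and 10.6 CPM per kb in BIBB-515 mice. Exon 3 (991 bases, mostly 3′ untranslated) had 2.06 and 16.4 CPM per kb. The share of the gene's reads on exon 3 was 68.6 ± 5.20% in control and 67.4 ± 3.77% in BIBB-515 mice (SD, n = 6 each). No difference in mean share between the diets was detected (exact permutation p = 0.67, adjusted p = 0.93). In C130080G10Rik the 3 control reads all fell on exon 3. In BIBB-515 mice exon 1, which makes up 50.9% of the exonic length, held 19 reads, against 115 on exon 2 (228 bases) and 180 on exon 3 (707 bases). Per kilobase that was 0.122, 2.98 and 1.51 CPM. GENCODE lists 5 starts for the gene, 2 of which, 1892 and 1917 bases inside the RefSeq start, skip that exon. The exon shares of this gene were not tested, since 3 control mice had no read and the other 3 had 1 read each.

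In 4931406C07Rik the alternative first exons and the body of the gene differed in the size of their ratios. Exons 2 to 9 each had a mean CPM that was 2.07 to 2.23-fold higher in BIBB-515 mice. The first exon at chr9:15306037-15306167 (131 bases, non-coding, named 1b here) had 21 to 28 reads in control mice and 17 to 46 reads in BIBB-515 mice, with overlapping groups. Its mean was 0.990 ± 0.171 CPM in control and 1.17 ± 0.330 CPM in BIBB-515 mice (SD, n = 6 each), a 1.18-fold ratio. The other first exon, chr9:15306214-15306448, which Taf1d overlaps on the other strand, had 23 reads in control and 22 in BIBB-515 mice. Exon 1b held 0.444 ± 0.0950% of the gene's reads in control and 0.252 ± 0.0768% in BIBB-515 mice. The difference had an exact permutation p of 0.0065, which became 0.071 after adjustment over the 11 exons tested and so missed the threshold. Without BIBB-515 mouse 9, whose share of 0.358% was the highest of its diet, the adjusted exact permutation p was 0.048. None of the 11 exon shares passed an adjusted p of 0.05, and 1 (exon 1b) had an unadjusted p under 0.05. The last exon, which holds most of the 3′ untranslated region, took 61.3 ± 2.93% of reads in control and 60.9 ± 2.83% in BIBB-515 mice (exact permutation p = 0.81). The read level on exon 2 was 35.8 CPM per kb in control mice, against 7.55 CPM per kb on exon 1b. GENCODE also starts transcripts at exon 2, at 15301556 and 15301514, next to the inner start whose upstream sequence is shown above.

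**Figure D3:**
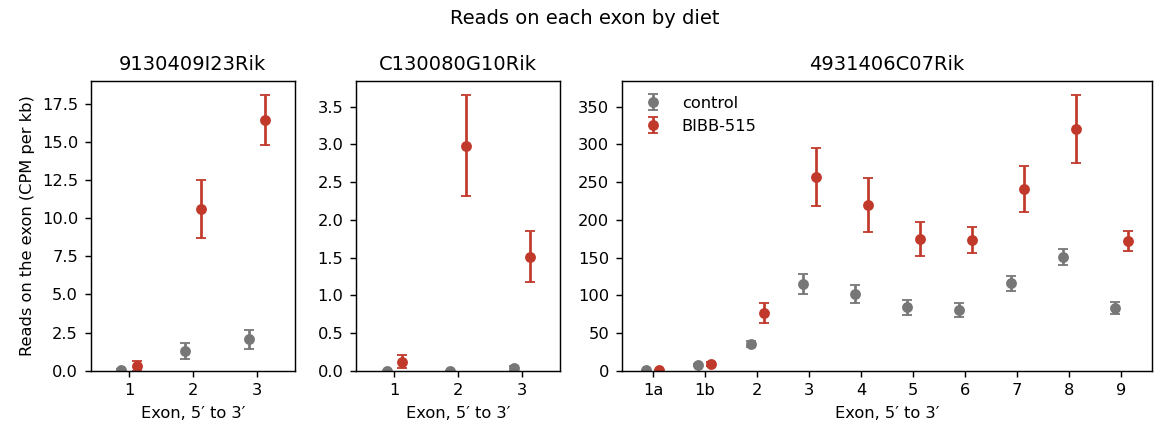
Reads on each exon in CPM per kb of exon (vertical axes from 0) along the 3 genes from 5′ to 3′, as mean and SD of 6 mice per diet. The first exons of 4931406C07Rik stay near the axis in both diets (7.55 and 8.95 CPM per kb for exon 1b). Exon 1 of the other genes is also low but has more reads in BIBB-515 mice. It had 1 read in control and 9 in BIBB-515 mice for 9130409I23Rik, and 0 and 19 for C130080G10Rik. The downstream exons of the 3 genes are higher in BIBB-515 mice.

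Genes around the 3 were tested in the fit across all genes, as they were not part of the choice. Of 23 genes with an exon within 200 kb, 13 passed the filter, and 2 rose and 0 fell at a false discovery rate (FDR) under 0.05 by edgeR's quasi-likelihood test with Benjamini-Hochberg adjustment. Across all 12481 genes, 13.7% were called, 7.18% higher and 6.48% lower. The median log2 fold change of the 13 neighbours was -0.08 and that of all tested genes was -0.01. The 11 neighbours not called had log2 fold changes between -0.27 and 0.19.

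The neighbour with the largest rise was Ephx1, which encodes microsomal epoxide hydrolase and is a known target of xenobiotic receptors. It lies upstream of 9130409I23Rik and is transcribed away from it, with 33742 bases between the 2 starts in the tables. Control mice ranged from 90.8 CPM through a median of 148 CPM to 219 CPM, and BIBB-515 mice from 385 CPM through a median of 468 CPM to 542 CPM, with no overlap. The log2 fold change was 1.61 (SE 0.18, edgeR FDR = 4.2e-05). Ephx1 is also on the list of 42 foreign-compound genes described below, which was drawn up with earlier results of these libraries known. Its deviations from the diet means correlated with those of 9130409I23Rik at r = 0.27 over 12 mice, given as a description. On the other side of 9130409I23Rik the nearest gene, Nvl, a ribosome biogenesis ATPase, had a log2 fold change of -0.09 (SE 0.09, edgeR FDR = 0.54).

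Near C130080G10Rik the closest gene is Actc1, cardiac alpha actin, whose start lies 1585 bases away and which is transcribed in the other direction. It was too low to pass the filter, with 0 to 0.202 CPM in control mice and 0.163 to 0.507 CPM in BIBB-515 mice, and at most 16 reads in any mouse. Fitted with no filter, its log2 fold change was 2.37 (SE 0.60, edgeR FDR = 0.021) on these few reads, and the groups overlapped. Lefty1, a TGF-beta family ligand within 200 kb of 9130409I23Rik, also crossed the threshold without the filter, at -1.01 (SE 0.30, edgeR FDR = 0.0498). On the other side of C130080G10Rik, Aqr, an RNA helicase of the spliceosome, had a log2 fold change of -0.06 (SE 0.08, edgeR FDR = 0.63).

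Taf1d, a subunit of the RNA polymerase I selectivity factor, starts 234 bases inside the outer start of 4931406C07Rik and runs in the opposite direction. It had 7.88 to 11.9 CPM in control and 7.46 to 11.6 CPM in BIBB-515 mice, with means of 9.39 ± 1.39 and 9.21 ± 1.35 CPM (SD, n = 6 each). Its log2 fold change was -0.03 (SE 0.11, edgeR FDR = 0.90) in the exon tables and -0.02 (SE 0.11, edgeR FDR = 0.94) in the primary tables. Counting ignored strand, so reads on the shared stretch cannot be told apart, but the primary tables gave 4931406C07Rik only 24 reads more over 12 mice, of 94435. Taf1d gained 183 reads of 3118. Med17, a Mediator subunit on the other side of 4931406C07Rik, had a log2 fold change of -0.08 (SE 0.07, edgeR FDR = 0.52). Smco4, at the edge of the 200 kb window, had a log2 fold change of 0.33 (SE 0.09, edgeR FDR = 0.033), with an FDR of 0.050 to 0.072 in 6 of the 12 fits that left out 1 mouse (control mouse 2 or 5, or BIBB-515 mouse 8, 9, 10 or 11). Without control mouse 5, 5830418K08Rik, another neighbour of 4931406C07Rik at -0.27 in the full fit, was at -0.33 with an edgeR FDR of 0.039.

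**Figure D4:**
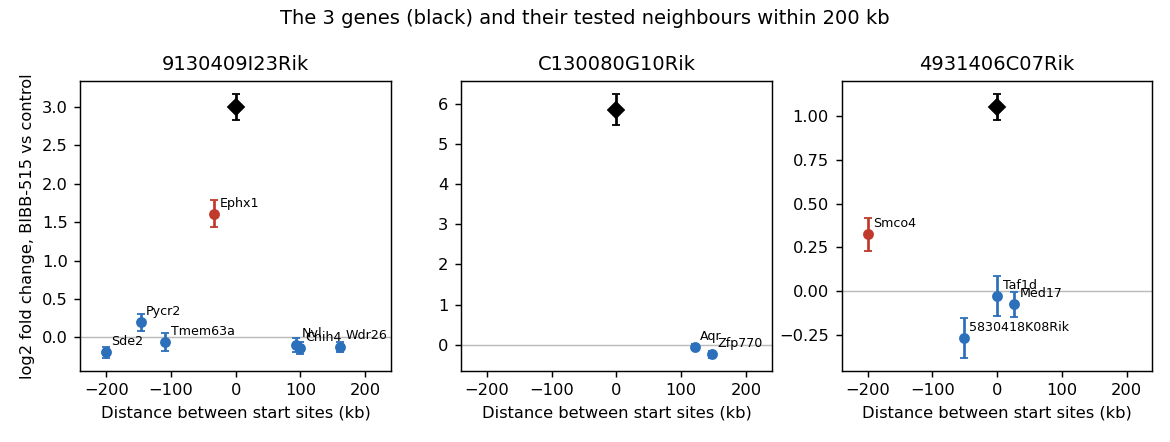
log2 fold change with its SE against the distance between start sites in kb (negative is upstream of the gene) for the tested neighbours, red where FDR is under 0.05, and for the 3 genes in black. Ephx1 (1.61) stands apart from the other neighbours of 9130409I23Rik, and Taf1d (-0.03) lies at the start of 4931406C07Rik.

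Of 1870 genes with a Rik name in the tables, 461 passed the filter, and 29 rose and 38 fell, or 14.5% called, near the 13.7% of all genes. Without the 3 genes it was 26 and 38 of 458. The median log2 fold change was -0.07. By fold change C130080G10Rik ranked 1 among them, on 3 control reads, 9130409I23Rik ranked 2 and 4931406C07Rik ranked 6. Since the 3 genes were chosen on this contrast, nothing is read from these places. The genes ranked between the 3 were 5330417C22Rik, C920025E04Rik (log2 fold change 1.72 at 0.808 CPM in control mice) and 1810064F22Rik (1.23 at 0.891 CPM). The gene just after 4931406C07Rik was D630039A03Rik.

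Of the Rik-named genes with an average of at least 1 log2 CPM, 5330417C22Rik rose from 1.99 ± 0.663 to 10.1 ± 2.64 CPM (SD, n = 6 each), a log2 fold change of 2.34 (SE 0.21, edgeR FDR = 6.7e-06). D630039A03Rik rose by 0.79 (SE 0.14, edgeR FDR = 0.0024) and 9430038I01Rik by 0.76 (SE 0.08, edgeR FDR = 3.1e-05) on the log2 scale. Among the falls, 1810011O10Rik had a log2 fold change of -1.05 (edgeR FDR = 0.0020), close in size to 4931406C07Rik. D130043K22Rik (-0.97), C730036E19Rik (-0.92), 9030619P08Rik (-0.77) and F830016B08Rik (-0.76) followed. The call of F830016B08Rik was lost with limma-voom (FDR = 0.054) and without any of control mice 1, 4 and 5 or BIBB-515 mice 6, 8, 9, 10 and 11 (FDR between 0.051 and 0.074).

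**Figure D5:**
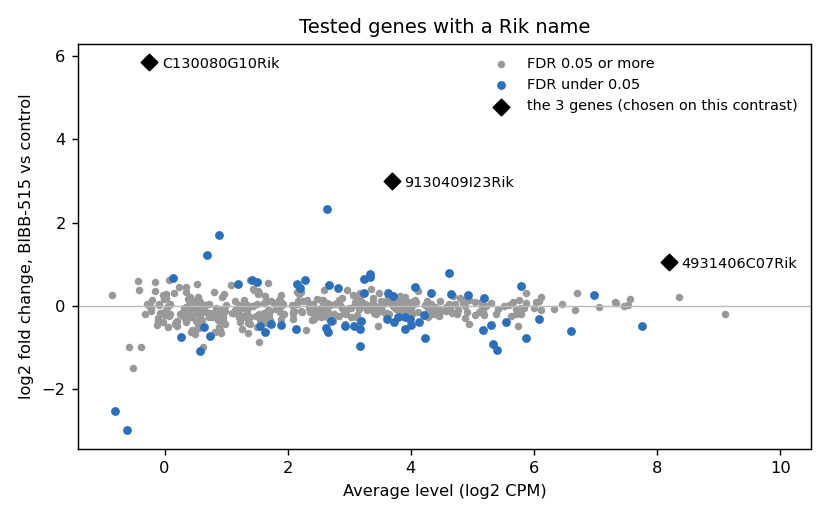
log2 fold change against the average level in log2 CPM for the 461 tested genes with a Rik name, blue where FDR is under 0.05 and black diamonds for the 3 genes. The 3 genes were chosen on this contrast. 4931406C07Rik (1.05) has the highest level of the 3. C130080G10Rik (5.85) has the largest fitted fold change, which rests on 3 control reads, and the lowest level of the 3.

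Genes of foreign-compound metabolism gave the setting of the 3. The list of 42 genes was drawn up with earlier results of these libraries known, so that its direction is not independent evidence. All 42 passed the filter, 28 rose and 0 fell (66.7%, against 13.7% of all genes), and the median log2 fold change was 0.94. Of its 10 cytochromes P450, enzymes that oxidise drugs and steroids, 5 rose and 0 fell, with log2 fold changes of 3.98 (SE 0.47) for Cyp2b10, 5.98 (SE 0.26) for Cyp2c55, 3.24 (SE 0.12) for Cyp3a11, 1.76 for Cyp2a5 and 1.67 for Cyp2c29. The other 5 were not called, Cyp2c37 (0.61), Cyp3a13 (0.20), Cyp2b9 (0.02), Cyp2a4 (-0.37) and Cyp2b13 (-0.65). Their electron donor Por rose by 0.79 (SE 0.14). The carboxylesterase Ces2a rose by 3.53 (SE 0.12) and the aldehyde dehydrogenase Aldh1a1 by 2.25 (SE 0.10). The glutathione transferases Gsta1 and Gstm3 rose by 6.38 (SE 0.26) and 5.72 (SE 0.29). A group of 6 genes of the list that NRF2 is known to induce was formed after their values were seen. It leaves out the glutathione transferases, such as Gsta1 and Gstm3, so it does not count all NRF2 targets on the list. Of the 6, 2 rose, the quinone reductase Nqo1 by 0.74 (SE 0.16) and the sulfiredoxin Srxn1 by 0.65 (SE 0.09). Gclm (0.22), Gclc (0.18), Hmox1 (0.07) and Txnrd1 (0.05) were not called. The edgeR FDR of the genes named as risen was between 2.1e-10 and 0.0064. On the log2 scale the value of 9130409I23Rik (2.99) stood below that of Cyp3a11, and that of 4931406C07Rik (1.05) above the median of the list. C130080G10Rik was not placed among them, since its fitted value rests on 3 control reads.

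The genes whose deviations from the diet means were most like those of each gene were named by Pearson's r over 12 mice, with no test, since 1 library sets the deviations of all genes in a mouse. For 9130409I23Rik they were Tstd1 (0.90), Synj2 (0.89), Gnb1 (0.87), Abcg8 (0.86) and Serpinb6b (0.86), of 11168 genes. Within the BIBB-515 mice alone r was 0.83 for Synj2 but 0.39 for Tstd1, 0.37 for Gnb1, 0.19 for Abcg8 and 0.03 for Serpinb6b, against 0.90 to 0.99 for the 5 within the control mice. For 4931406C07Rik they were Dnajb4 (0.89), Zfr (0.89), Zfp438 (0.85), Hnrnpu (0.85) and Ddit3 (0.84), of 11499 genes. For C130080G10Rik they were Lars2 (0.92), Mir6236 (0.90), Pelp1 (0.89), Creg1 (0.88) and BC004004 (0.82), but the deviations of its 6 control mice rest on 0 or 1 read. With Spearman's correlation 1 of the 5 for 9130409I23Rik, 4 of the 5 for C130080G10Rik and 0 of the 5 for 4931406C07Rik stayed among the 5 most alike. Only genes with an average of at least 1 log2 CPM were compared, so C130080G10Rik (-0.25) could not be named. Neither 9130409I23Rik nor 4931406C07Rik was among the 5 most like another of the 3 genes by Pearson's r.

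Liver identity and other cells were checked on marker lists. Hepatocyte markers were high in every mouse, 141424 to 157036 CPM summed over 6 genes in control and 105248 to 121602 CPM in BIBB-515 mice. These ranges do not overlap, and 3 of the 6 markers fell (50%, against 6.48% of all genes lower). They were Alb (log2 fold change -0.40, edgeR FDR = 0.013), Ttr (-0.49, edgeR FDR = 0.0039) and Pck1 (-0.56, edgeR FDR = 0.019). The call of Alb was lost with no filter on low counts. Pck1 is a gluconeogenesis gene, for which the paper reported a rise by qPCR under BIBB-515, unlike the fall here. The qPCR covered 11 mice per group and was normalized to the housekeeping gene B2M. The values here come from 6 mice per group and are scaled over all genes. Of 41 markers of other cell types in the tables, 28 passed the filter, 0 rose and 2 fell (7.14%, against 6.48% of all genes lower), the stellate cell genes Dcn (log2 fold change -0.27, edgeR FDR = 0.040) and Lrat (-0.81, edgeR FDR = 0.020). Within the stellate list this was 2 of 6 tested (33.3%), and the remaining lists of other cells had 0 called. The call of Dcn was lost in 8 of the 12 fits that left out 1 mouse (control mouse 1, 3, 4 or 6, or BIBB-515 mouse 7, 8, 9 or 10, with edgeR FDR up to 0.091), and that of Lrat in 0 of 12. Summed levels overlapped between the diets for Kupffer cells (272 to 451 CPM against 273 to 476 CPM), endothelial cells (184 to 247 against 170 to 235 CPM), stellate cells (319 to 439 against 315 to 405 CPM) and bile duct (62.8 to 116 against 92.1 to 155 CPM). They also overlapped for leukocytes (14.4 to 20.4 against 11.6 to 20.9 CPM), fat (6.82 to 11.3 against 6.96 to 11.6 CPM) and erythroid cells (9.64 to 15.7 against 9.28 to 13.5 CPM). Of the 6 fat markers 1 and of the 6 erythroid markers 4 had 0 reads in every mouse. In each of these lists 5 markers had at most 3 reads in any mouse, and only 1 passed the filter. The part of other cells in the levels of the 3 genes was not tested.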

How the data were processed

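Per the labels and file headers, the authors aligned liver RNA-seq reads to mm10 with STAR 2.5.3a and counted them with featureCounts (Subread 1.6.3) without strand. The deposited values are raw read counts per gene (exon tables that drop reads on 2 genes, and primary-alignment tables that count such reads for each gene) and per exon. Tables by transcript were not used.

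Counts were scaled by TMM and tested with edgeR 4.0.16 (quasi-likelihood, R 4.3.3) on genes with at least 1 CPM in 2 of 12 mice, at an FDR of 0.05. Log2 CPM used a prior count of 2. CPM of single genes are counts over the TMM-scaled library. Replicates were separate libraries: the smallest chi-square per degree of freedom among the 30 pairs within a diet was 12.1. On simulated counts the edgeR step was checked before use. Exon shares and correlations were tested by exact permutation (SciPy 1.17.1), with 924 labelings of the mice for shares, which allow no two-sided p under 0.0022. All tests were two-sided, and exons needed 50 reads in all. DESeq2 1.42.0, limma 3.58.1 (voom), other scaling factors, filters, windows and tables were alternatives.

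The 3 genes and all lists, tests and motifs were chosen with earlier results of these data known. Named genes were the 3, Taf1d, the nearest neighbours on each side and those called, the 5 most alike, the 5 largest rises and falls among Rik-named genes, and 10 of the detoxification list. The other members of the P450 and NRF2 groups of that list, Alb, Ttr, Pck1, Dcn, Lrat, 5830418K08Rik, Lefty1, C920025E04Rik and 1810064F22Rik were named after their values were seen. Promoter windows came from RefSeq and matched all 3 genes, with 5 windows. Protein sequences were not used here.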

Additional observations from a re-analysis of the deposited data

Results flagged for a closer look

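4931406C07Rik in BIBB-515 mice had 1 mouse apart from the rest of its diet. The lowest, mouse 9 at 324 CPM, lay below the next mouse by 0.636 of the range of the group, above Dixon's critical value for 6 samples. It was 1 of 18 groups of mice checked, and chance flags about 1 in 20. Mouse 9 still lay above every control mouse, and leaving out single mice kept the log2 fold change of the gene between 1.02 and 1.10.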

How the results depend on the processing

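No paired analysis was made, since each mouse received a single diet and the labels give no pairing of mice. Replicate number 6 occurs in both diets as a number within each. Leaving out 1 mouse at a time gave 1199 to 1865 genes called (1246 to 1924 in the primary tables), 44 to 80 Rik-named genes, 27 to 29 of the detoxification list, 1 to 2 neighbours and 1 to 3 markers of other cells. It gave log2 fold changes of 2.86 to 3.12 for 9130409I23Rik, 5.60 to 6.15 for C130080G10Rik, 1.02 to 1.10 for 4931406C07Rik and -0.10 to 0.06 for Taf1d (positive without control mouse 4, 0.061, or BIBB-515 mouse 8, 0.026), and 0 to 1 exon shares called (1 without BIBB-515 mouse 9). The Rik-named count was 44 without control mouse 1 or BIBB-515 mouse 10 or 11. Tmem63a, a neighbour, ranged from -0.13 to 0.039, positive without control mouse 3. Markers called were 1 without control mouse 1, 3 or 4 or BIBB-515 mouse 8, 9 or 10. Over the other settings the calls ran from 1489 (no filter) to 2244 (DESeq2). Neighbours called were 4 with no filter and 1 within 100 kb, because Smco4 lies beyond it. Markers of other cells called were 1 with upper-quartile factors and 1 with no filter. The fitted value of C130080G10Rik was 5.35 with limma-voom. For 9130409I23Rik and 4931406C07Rik in BIBB-515 mice, CPM in place of log2 CPM gave r = 0.88 (adjusted exact permutation p = 0.067). For 9130409I23Rik and C130080G10Rik, r was -0.077 on CPM and -0.56 without the 2 farthest mice in control, and -0.056 without them in BIBB-515 mice. Where no construction is named, the cause was not tested. Depth limits C130080G10Rik most, with 3 control reads.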
